A study of Homo sapiens with 6 samples.

Results

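The genes described here are of the TGF-beta pathway: ligands TGFB1, TGFB2 and TGFB3, receptors TGFBR1, TGFBR2 and TGFBR3, and SMAD3, SMAD7 and TGFBI. SMAD3 carries the signal inside the cell, and TGF-beta induces SMAD7 and TGFBI. All were taken by gene symbol, 9 of the 58884 rows of the expression matrix, and each symbol stood on 1 row. RNA sequencing compared 3 libraries of KYSE450 cells with 3 libraries of KEAP1null-KYSE450 cells. KYSE450 is a line of esophageal squamous cell carcinoma (ESCC) that carries wild-type NRF2, and KEAP1null-KYSE450 was made from it by CRISPR-Cas9 with a guide to exon 2 of KEAP1. Both were grown untreated in RPMI1640 medium with fetal bovine serum. KEAP1null-KYSE450 is a monoclonal line, so differences that come from KEAP1 loss and those that come from the choice of 1 clone cannot be told apart. The comparison asks how these mRNAs differ when the adaptor that marks NRF2 for degradation is lost.

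TGF-beta ligands are made as latent complexes and, once released, join the type II receptor TGFBR2 to the type I receptor TGFBR1, often with help from the coreceptor TGFBR3. The active receptor phosphorylates SMAD2 and SMAD3, which enter the nucleus with SMAD4 and switch genes on or off, among them SMAD7, which then dampens the receptor. In squamous epithelium the pathway is known for holding back proliferation and, in carcinoma, for favouring invasion and a mesenchymal shape.

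The libraries summed to between 54829313 and 57380170 normalized counts, and 3 reads were worth between 2.77 and 3.21 normalized counts, taken here as the floor of detection (counting error only). NQO1, a target of NRF2, rose 6.48-fold in KEAP1null-KYSE450, while KEAP1 mRNA averaged 5377 normalized counts in KYSE450 and 5320 in KEAP1null-KYSE450, so its level does not check the labels. Genes of the mitochondrial genome took 2.04% to 2.83% of the normalized counts in KYSE450 and 3.92% to 4.65% in KEAP1null-KYSE450, and their part in the results was not tested. All 8 epithelial markers were detected well enough to be tested, of which 1 was higher in KEAP1null-KYSE450 (12.5%, against 12.2% of all genes tested) and 3 were lower (37.5%, against 5.98%). Of the marker lists of other cell types, 1 of 8 fibroblast, 1 of 6 immune and 2 of 5 endothelial genes were. The fibroblast list summed to between 624 and 856 normalized counts in KYSE450 and between 354 and 437 in KEAP1null-KYSE450, nearly all of it COL1A1. The immune list summed to between 24.3 and 32.1 and between 5.04 and 7.38. In it ITGAM averaged 22.0 and 2.55 and passed the rule given below as lower. PTPRC averaged 3.05 and 0.336, and MS4A1 was at 0 in every library. The endothelial list summed to between 59.9 and 75.8 and between 48.0 and 70.6. VWF averaged 45.4 and 54.4, and CDH5 averaged 19.9 and 1.97 and passed the same rule as lower. PECAM1 was at 0 in every library. The part of these markers in the results was not tested.

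The largest differences among the 9 genes lay in 1 ligand and 1 coreceptor. TGFB2 fell to near the floor of detection in KEAP1null-KYSE450 and TGFBR3 rose from near it, while TGFB1, TGFB3, TGFBR1, TGFBR2, SMAD3 and SMAD7 differed by less than 2-fold. A difference was called where limma gave a Benjamini-Hochberg adjusted p under 0.05 and the log2 fold change (KEAP1null-KYSE450 minus KYSE450) was at least 1 in size. By this rule 3 of the 9 genes were called, TGFBR3 higher and TGFB2 and TGFBI lower, against 18.2% of the 16701 genes tested (12.2% higher and 5.98% lower). With the adjusted p alone 6 of the 9 passed, against 49.8%, of which 2 were higher (24.3% of all genes) and 4 lower (25.5%). The libraries of the lines did not overlap for 5 of the 9, against 57.8%. TGFBR3 averaged under 10 normalized counts in KYSE450 and TGFB2 under 10 in KEAP1null-KYSE450, so each entered the test through 1 line, and these counts describe the genes rather than support a difference of the group. The median log2 fold change of all genes tested was 0.0041. No source says that the 3 libraries of a line came from separate cultures, so the p-values measure only the spread between libraries, which may be technical.

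The sequence before the start of the 2 genes that moved most is shown because they moved in opposite directions. The 9 genes had 24 promoter windows in RefSeq (GRCh38.p14), and for TGFB2 and TGFBR3, which have 1 each, the 250 bases before the start were read in the direction of the gene. The TGFB2 window is chr1:218345086-218345335 on the plus strand, and the TGFBR3 window is chr1:91886152-91886401 on the minus strand, before a RefSeq start that lies inside the gencode gene. Capitals mark matches on either strand to the letters of 6 motifs, namely the core of the antioxidant response element TGACNNNGC, which NRF2 binds, the AP-1 site TGANTCA, the SMAD box CAGAC, the E2 box CACCTG, the CRE half-site TGACG and the TATA box TATAAA.
TGFB2: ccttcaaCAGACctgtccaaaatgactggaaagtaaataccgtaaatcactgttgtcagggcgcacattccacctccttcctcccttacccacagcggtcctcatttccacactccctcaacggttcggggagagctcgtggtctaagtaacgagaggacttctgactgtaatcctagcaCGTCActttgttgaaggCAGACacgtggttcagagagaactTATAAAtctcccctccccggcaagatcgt
TGFBR3: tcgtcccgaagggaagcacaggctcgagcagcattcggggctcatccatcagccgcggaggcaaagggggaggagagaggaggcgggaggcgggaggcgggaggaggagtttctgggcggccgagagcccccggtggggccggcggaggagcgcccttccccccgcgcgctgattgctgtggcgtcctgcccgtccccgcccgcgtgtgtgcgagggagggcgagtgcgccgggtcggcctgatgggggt
The TGFB2 window held SMAD boxes from 243 to 239 and from 53 to 49 bases before the start, a CRE half-site on the minus strand from 70 to 66 bases and a TATA box from 29 to 24 bases. These marked stretches did not overlap. The TGFBR3 window held none of the 6, and 73.6% of its bases were G or C against 50.4% in TGFB2. Of 35116 RefSeq promoter windows of the same length, 38% held a SMAD box, 21.2% a CRE half-site, 10.7% a TATA box, 10.9% the antioxidant response element core, 6.57% the AP-1 site and 17.5% the E2 box. The matches are of letters and show no binding.

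Of the ligands, TGFB1 was the most abundant. It encodes the most widely expressed TGF-beta and lies at 41301587 to 41353922 of chromosome 19 (minus strand) in hg38 (ENSG00000105329). It had 2766, 2277 and 2211 normalized counts in KYSE450 and 1629, 1268 and 1520 in KEAP1null-KYSE450. All 3 KEAP1null-KYSE450 libraries lay below all 3 KYSE450 libraries. The mean went from 2418 ± 303 (SD, n = 3) to 1472 ± 185 (SD, n = 3), a log2 fold change of -0.72 (SE 0.12, limma adjusted p = 4.6e-04), which passed the adjusted p and not the size cutoff. Exons of TGFB1 share 215 bases with HNRNPUL1, a gene on the other strand, which averaged 19389 normalized counts in KYSE450 and 15582 in KEAP1null-KYSE450. No source used here states whether counting used the strand, and the part of HNRNPUL1 reads in the TGFB1 counts was not tested.

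TGFB2, the ligand that depends most on TGFBR3 to reach the signalling receptors, fell the furthest of the 9 genes. It lies at 218345336 to 218444619 of chromosome 1 (plus strand, ENSG00000092969). Its normalized counts were 230, 216 and 275 in KYSE450 and 15.7, 2.04 and 2.02 in KEAP1null-KYSE450. The lines lay far apart, and 2 of the 3 KEAP1null-KYSE450 libraries were at or under the floor of 3 reads. The mean went from 240 ± 30.7 to 6.58 ± 7.89 (SD, n = 3 each), 36.5-fold lower on the linear scale, with a log2 fold change of -5.49 (SE 0.56, limma adjusted p = 6.9e-06). Without KEAP1null-KYSE450 library 1, which held most of what was left, it was -6.31. Of the 16701 genes tested, 37 had a lower log2 fold change. TGFB2 was called under all 16 alternative settings. In bulk RNA, fewer cells that make a transcript and less of it per cell cannot be told apart.

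Other RNAs annotated at the TGFB2 locus were near 0. TGFB2-AS1 runs on the other strand and shares 701 exon bases with TGFB2. It had 12.8, 1.01 and 3.73 normalized counts in KYSE450 and 0 in all 3 KEAP1null-KYSE450 libraries, too few for the test. Within 1 Mb on either side of TGFB2, 5 other genes were tested, with log2 fold changes from -0.36 to 1.81 and a median of 0.44. The 1 that was called was LYPLAL1-DT, a noncoding RNA, which was higher in KEAP1null-KYSE450. None was called lower. Of all genes tested 12.2% were called higher and 5.98% lower, so 5 genes are too few to show a pattern. By the limma adjusted p alone RRP15 was lower (log2 fold change -0.36, adjusted p = 0.0085), and LYPLAL1 (0.44) and SPATA17 (0.59) were higher.

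TGFB3, the third ligand, is at 75958097 to 75983011 of chromosome 14 (minus strand, ENSG00000119699). It had 78.1, 81.9 and 59.7 normalized counts in KYSE450 and 79.4, 56.1 and 63.6 in KEAP1null-KYSE450. The ranges overlapped, and the log2 fold change of -0.14 (95% interval -0.71 to 0.43, limma adjusted p = 0.68) leaves differences of either sign possible.

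**Figure D1:**
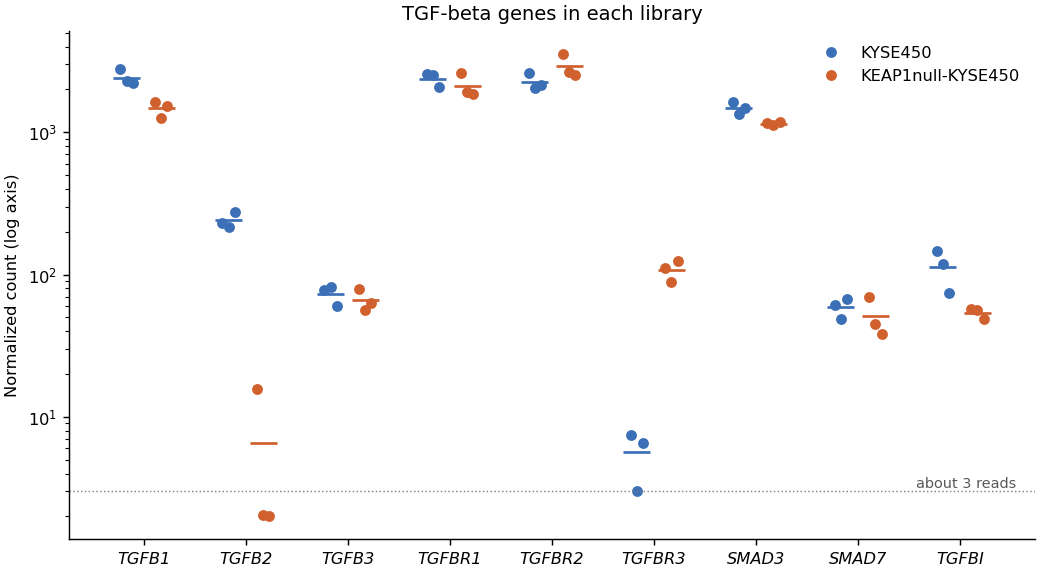
Normalized counts of the 9 genes in each library, on a log axis, as points for the 3 KYSE450 and the 3 KEAP1null-KYSE450 libraries. The lines are far apart for TGFB2 (216 to 275 against 2.02 to 15.7) and for TGFBR3 (3.03 to 7.49 against 88.7 to 125), and close or overlapping for the other 7 genes.

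Counts per gene grow with transcript length, so levels of different genes were compared as normalized counts per kilobase of annotated exon. On this scale the 3 ligands summed to 795 ± 91.9 in KYSE450 and 465 ± 59.7 in KEAP1null-KYSE450 (SD, n = 3 each). TGFB2 made up 4.22%, 4.77% and 6.19% of that sum in KYSE450 and 0.502%, 0.0843% and 0.0697% in KEAP1null-KYSE450. TGFB1 made up 93.2% ± 0.934 and 97.1% ± 0.440, and TGFB3 1.77% ± 0.284 and 2.72% ± 0.201. The lines did not overlap in the sum or in any of the 3 shares, and the two-sided exact permutation p was 0.1 for each, the smallest that 3 libraries against 3 can give. The ligand mRNA of both lines was thus mostly TGFB1, with less of it in KEAP1null-KYSE450 and a smaller share of TGFB2.

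TGFBR1 encodes the type I receptor kinase, at 99104038 to 99154192 of chromosome 9 (plus strand, ENSG00000106799). It had 2571, 2508 and 2063 normalized counts in KYSE450 and 2604, 1922 and 1847 in KEAP1null-KYSE450. The ranges overlapped, with a log2 fold change of -0.18 (95% interval -0.47 to 0.12, limma adjusted p = 0.31). The interval lies inside a 2-fold difference in either direction.

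TGFBR2 encodes the type II receptor kinase that binds the ligand and activates TGFBR1, at 30606601 to 30694142 of chromosome 3 (plus strand, ENSG00000163513). It had 2610, 2036 and 2159 normalized counts in KYSE450 and 3526, 2665 and 2536 in KEAP1null-KYSE450. The highest KYSE450 library lay above the lowest KEAP1null-KYSE450 library. The log2 fold change was 0.35 (SE 0.14, limma adjusted p = 0.047), just under the threshold for p and short of the size cutoff. Leaving aside the alternative that tests against a fold change of 2, the adjusted p was above 0.05 under 9 of 15 alternatives and reached 0.19 without KEAP1null-KYSE450 library 1.

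TGFBR3, also called betaglycan, encodes the coreceptor that presents ligand to TGFBR2, and its shed form can instead hold ligand away. It lies at 91680343 to 91906335 of chromosome 1 (minus strand, ENSG00000069702). Its normalized counts were 7.49, 3.03 and 6.53 in KYSE450 and 112, 88.7 and 125 in KEAP1null-KYSE450. The KYSE450 libraries were close to the floor, 1 of them at it, and every KEAP1null-KYSE450 library lay far above all of them. The mean went from 5.68 ± 2.34 to 108 ± 18.4 (SD, n = 3 each), 19.1-fold higher, and the log2 fold change was 4.09 (SE 0.41, limma adjusted p = 5.8e-06). Among the genes tested 156 had a higher log2 fold change. TGFBR3 was called under the 15 alternatives in which it was tested. Of the 13 other genes tested within 1 Mb of TGFBR3 none was called, against 18.2% of all genes tested. Their log2 fold changes lay between -0.72 and 0.89 with a median of 0.14. By the adjusted p alone GFI1 was higher (0.86), and EPHX4 (-0.72) and ZNF644 (-0.37) were lower.

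Per kilobase of exon, TGFBR1 and TGFBR2 made up nearly all of the receptor mRNA in both lines. TGFBR3 was 0.105% ± 0.0409 of the sum of the 3 receptors in KYSE450 and 1.84% ± 0.462 in KEAP1null-KYSE450 (SD, n = 3 each). TGFBR1 was 47.3% ± 3.48 and 37.8% ± 0.359 of it, and TGFBR2 52.5% ± 3.43 and 60.4% ± 0.358. None of these 3 shares overlapped between the lines (two-sided exact permutation p = 0.1 each, the smallest possible). The sum itself was 630 ± 66.6 and 703 ± 131 normalized counts per kilobase and did overlap (exact permutation p = 0.5).

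SMAD3, a transcription factor that the receptor activates, is at 67063763 to 67195173 of chromosome 15 (plus strand, ENSG00000166949). It had 1625, 1338 and 1470 normalized counts in KYSE450 and 1152, 1119 and 1175 in KEAP1null-KYSE450. The lines did not overlap, and the log2 fold change of -0.36 (SE 0.11, limma adjusted p = 0.015) passed the adjusted p and not the size cutoff. With the same alternative left aside, the adjusted p rose above 0.05 in 3 of 15 alternatives, with 0.062 from edgeR and 0.054 from DESeq2 on 4 libraries and 0.061 without KEAP1null-KYSE450 library 2. A noncoding gene on the other strand shares 182 exon bases with SMAD3 and averaged 8.79 normalized counts in KYSE450 and 7.29 in KEAP1null-KYSE450.

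SMAD7 encodes the inhibitory SMAD that TGF-beta signalling induces within the cell and that sends the receptor for degradation. It lies at 48919853 to 48950965 of chromosome 18 (minus strand, ENSG00000101665). It had 61.0, 48.5 and 67.1 normalized counts in KYSE450 and 70.1, 44.9 and 38.3 in KEAP1null-KYSE450, with overlapping ranges. The log2 fold change was -0.23 (95% interval -0.90 to 0.43, limma adjusted p = 0.55), so differences of either sign remain possible.

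TGFBI encodes a secreted matrix protein named for its induction by TGF-beta, at 136028988 to 136063818 of chromosome 5 (plus strand, ENSG00000120708). It had 148, 118 and 74.6 normalized counts in KYSE450 and 57.2, 56.1 and 48.4 in KEAP1null-KYSE450. The lines did not overlap, and the KYSE450 libraries spread more, with a mean of 113 ± 36.7 against 53.9 ± 4.78 (SD, n = 3 each). The log2 fold change of -1.01 (95% interval -1.62 to -0.40, limma adjusted p = 0.010) sat at the size cutoff, and TGFBI was called under 7 of 15 alternatives. Without KYSE450 library 1, the highest, the log2 fold change was -0.79 and it was not called. It was also not called without KYSE450 library 2 (-0.95) or without KEAP1null-KYSE450 library 3 (-0.94).

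**Figure D2:**
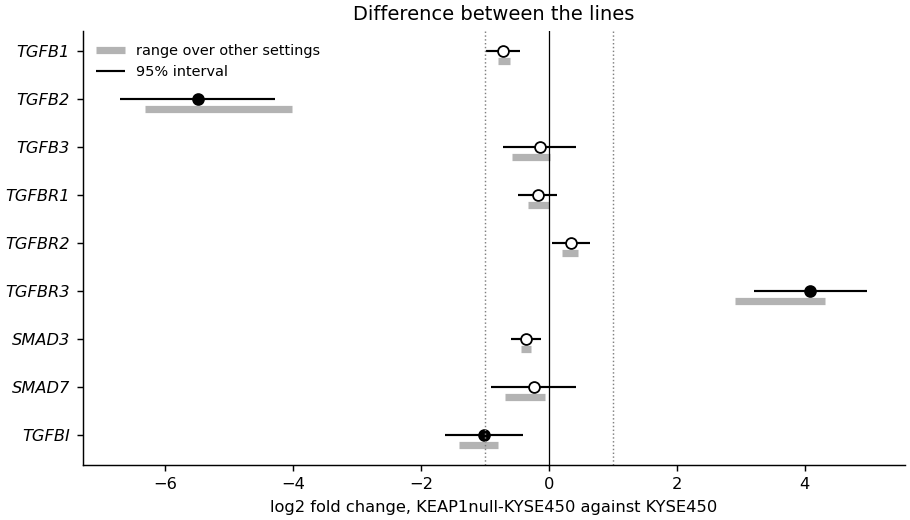
Log2 fold change of each of the 9 genes, KEAP1null-KYSE450 minus KYSE450, with its 95% interval from limma (3 libraries per line). TGFB2 lies at -5.49 and TGFBR3 at 4.09, while the other 7 genes lie between -1.01 and 0.35.

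Ordered by mean level per kilobase of exon, TGFB1 led in both lines, with 741 normalized counts per kilobase in KYSE450 and 451 in KEAP1null-KYSE450. In KYSE450 it was followed by TGFBR2 (331), TGFBR1 (298), SMAD3 (148), TGFB2 (39.7), SMAD7 (14.9), TGFBI (14.7), TGFB3 (14.0) and TGFBR3 (0.662). The ranges of neighbours in this order overlapped between TGFBR2 and TGFBR1, between SMAD7 and TGFBI and between TGFBI and TGFB3. In KEAP1null-KYSE450 the order was TGFB1, TGFBR2 (425), TGFBR1 (266), SMAD3 (115), SMAD7 (13.0), TGFB3 (12.7), TGFBR3 (12.6), TGFBI (6.98) and TGFB2 (1.09), and the ranges overlapped between TGFB1 and TGFBR2, between SMAD7 and TGFB3 and between TGFB3 and TGFBR3. In KEAP1null-KYSE450 libraries 1 and 2 TGFBR2 lay above TGFB1 (515 against 499 and 389.0 against 388.5), and only in library 3 below it. By the means TGFB2 thus went from place 5 to place 9 and TGFBR3 from place 9 to place 7.

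**Figure D3:**
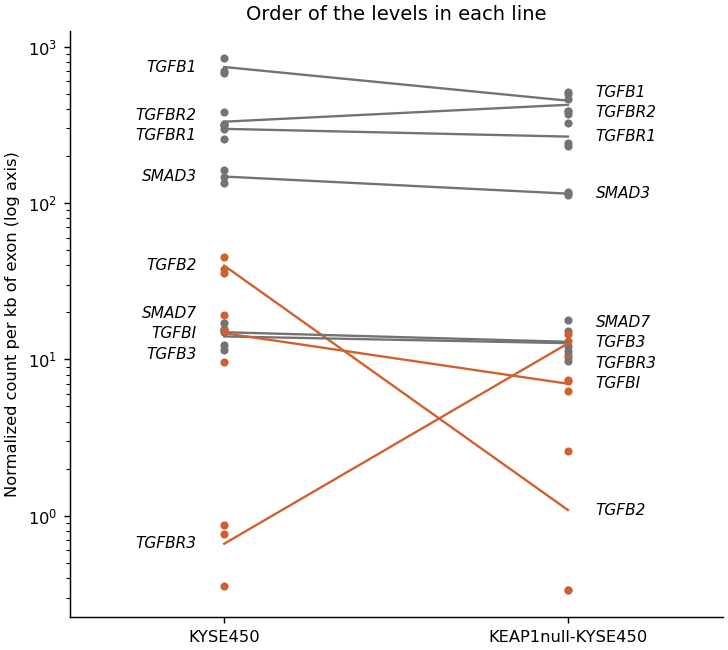
Normalized counts per kilobase of annotated exon for the 9 genes in both lines, on a log axis, with a point for each library. TGFB2 goes from a mean of 39.7 to 1.09 and TGFBR3 from 0.662 to 12.6, while TGFB1 stays the highest by its mean in both lines.

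Among the genes whose levels followed TGFB2 most closely over the 6 libraries, by Pearson r of the log2 values, were SYPL1 (0.998), POLR2B (0.998), NUS1 (0.997) and MTREX (0.997). POLR2B, which encodes a subunit of RNA polymerase II, had 15558, 15657 and 16237 normalized counts in KYSE450 and 11850, 10293 and 9888 in KEAP1null-KYSE450, and like TGFB2 was highest in library 1 of the latter. Its log2 fold change was -0.57, far smaller than that of TGFB2. A high r is common here because the points share the split into 2 lines, and 1467 of 12340 genes (11.9%) had an r over 0.95 with TGFB2.

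Around the 9 genes, lists of known pathway genes were described by how many passed the same rule. Of the 10 ligand and latency genes tested, 3 rose (30%, against 12.2% of all genes tested), 2 fell (20%, against 5.98%) and the median log2 fold change was -0.23. The latent binding protein LTBP2, which anchors in the matrix, rose from 105 ± 12.2 to 298 ± 85.2 (SD, n = 3), a log2 fold change of 1.46. FURIN, the protease that cleaves the TGF-beta precursor, fell from 3175 ± 735 to 1395 ± 187, a log2 fold change of -1.17, though without KYSE450 library 1 it was -0.99 and not called. TGFB2, described above, was the other gene that fell. The other genes that rose, EMILIN1 and LRRC32, were outside the rule for naming genes and were named after their values were seen. LRRC32, which encodes the cell-surface anchor of latent TGF-beta known as GARP, went from 4.28, 2.02 and 0 normalized counts to 44.3, 50.0 and 44.4. LRRC32 and TGFB2 each entered the test through the 1 line where they are high, so their calls do not support a difference of the list. With a mean of at least 100 required, the number that rose was 1.

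Among 11 tested activators of latent ligand none rose (against 12.2% of all genes) and 2 fell (18.2%, against 5.98%), with a median of -0.33. PLAT, the tissue plasminogen activator, fell from 243 ± 52.3 to 28.5 ± 7.29 and the metalloproteinase MMP2 from 248 ± 48.9 to 41.1 ± 18.3, with log2 fold changes of -3.05 and -2.66. The integrin subunits ITGAV, ITGB6 and ITGB8, whose dimers free TGF-beta from latency in epithelium, had log2 fold changes of -0.33, -0.26 and 0.50 and were not called. They were likewise named after their values were seen. None of the 5 tested activin, inhibin and GDF genes was called, against 18.2% of all genes (median -0.54).

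Of 9 receptors and coreceptors, TGFBR3 rose and BAMBI fell (11.1% each way, against 12.2% and 5.98% of all genes), and the median was -0.18. BAMBI, a decoy receptor without a kinase, went from 151, 170 and 142 to 61.8, 55.0 and 60.5 normalized counts, a log2 fold change of -1.36 (limma adjusted p = 2.2e-04). Of 23 SMADs, partners and negative regulators, HIPK2 rose, PMEPA1 fell (4.35% each way, against the same 12.2% and 5.98%) and the median was -0.08. The number that fell was 2 without KEAP1null-KYSE450 library 1, without its library 2 or without KYSE450 library 3. PMEPA1, a TGF-beta-induced membrane protein that keeps SMAD2 and SMAD3 from the receptor, went from 1038, 684 and 603 to 91.4, 32.6 and 54.5 normalized counts, 13.0-fold lower (log2 fold change -3.76, limma adjusted p = 1.2e-06). HIPK2, a nuclear kinase and corepressor, went from 540 ± 155 to 1663 ± 135, a log2 fold change of 1.66. SMAD2 and SMAD4, which carry the signal with SMAD3 and are named here for that role, had log2 fold changes of -0.03 and 0.15 and were not called.

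**Figure D4:**
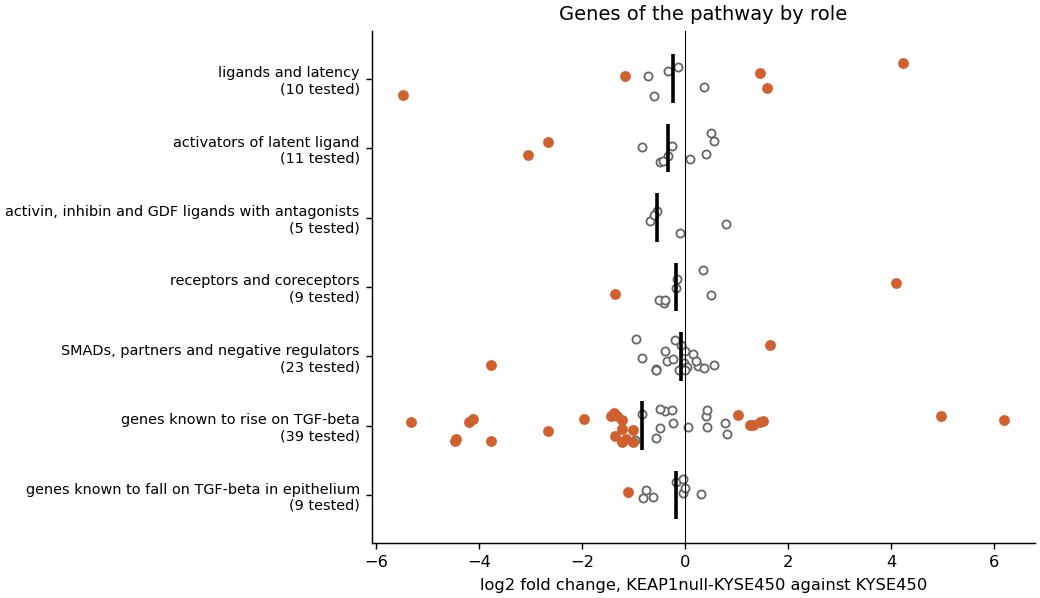
Log2 fold change, KEAP1null-KYSE450 minus KYSE450, of each tested gene in each pathway list, as points, with a bar at the median of the list. Filled points were called higher or lower by the limma rule of a 0.05 adjusted p and a log2 size of 1. The list of genes known to rise on TGF-beta has 7 higher and 18 lower of 39, while the other 6 lists have at most 3 in either direction.

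Of 46 genes known to rise when epithelial or mesenchymal cells receive TGF-beta, 39 were tested. In KEAP1null-KYSE450 7 of them (17.9%) were higher, against 12.2% of all genes tested, and 18 (46.2%) were lower, against 5.98%, with a median log2 fold change of -0.85 against 0.0041. The list holds SMAD7, TGFBI, PMEPA1, BAMBI, LTBP2 and MMP2 described above. It was written with earlier results of these data known, and its genes answer to many other signals too.

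The lower genes with the largest differences were PTHLH, PDGFB, TAGLN and ANGPTL4. PTHLH, which encodes parathyroid hormone-related protein, went from 15664, 17062 and 14842 to 404, 400 and 380 normalized counts, 40.2-fold lower (log2 fold change -5.32, SE 0.10, limma adjusted p = 4.2e-13). PDGFB, a growth factor for mesenchymal cells, went from 329 ± 68.1 to 14.2 ± 4.69, a log2 fold change of -4.46. For TAGLN, an actin-binding protein of smooth muscle, the means were 359 ± 29.3 and 16.5 ± 7.79 with a log2 fold change of -4.45. ANGPTL4, a secreted regulator of lipoprotein lipase, went from 1390, 1168 and 519 to 68.3, 59.1 and 32.3, a log2 fold change of -4.19. For each of these genes every KEAP1null-KYSE450 library lay far below every KYSE450 library.

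The higher genes named by the same rule were ZEB1, ACTA2, LTBP2 and CCN2. ZEB1, a repressor of epithelial genes, went from 20.3, 7.08 and 13.1 to 423, 455 and 388 normalized counts, 31.3-fold higher (log2 fold change 4.97, SE 0.33, limma adjusted p = 1.2e-07). ACTA2, smooth muscle actin, went from 374 ± 56.8 to 1069 ± 170 and CCN2, a matricellular protein, from 118 ± 13.2 to 299 ± 69.5, with log2 fold changes of 1.51 and 1.31. ACTA2 was thus higher and TAGLN lower, although both are smooth muscle markers. ADAM12, a metalloproteinase, was named after its values were seen because it lay farthest to the higher side. It had 1.07, 0 and 0 normalized counts in KYSE450 and 129, 82.6 and 74.7 in KEAP1null-KYSE450. That is at least 31.7-fold higher against the floor of 3 reads per library. ADAM12 entered the test through KEAP1null-KYSE450 alone.

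**Figure D5:**
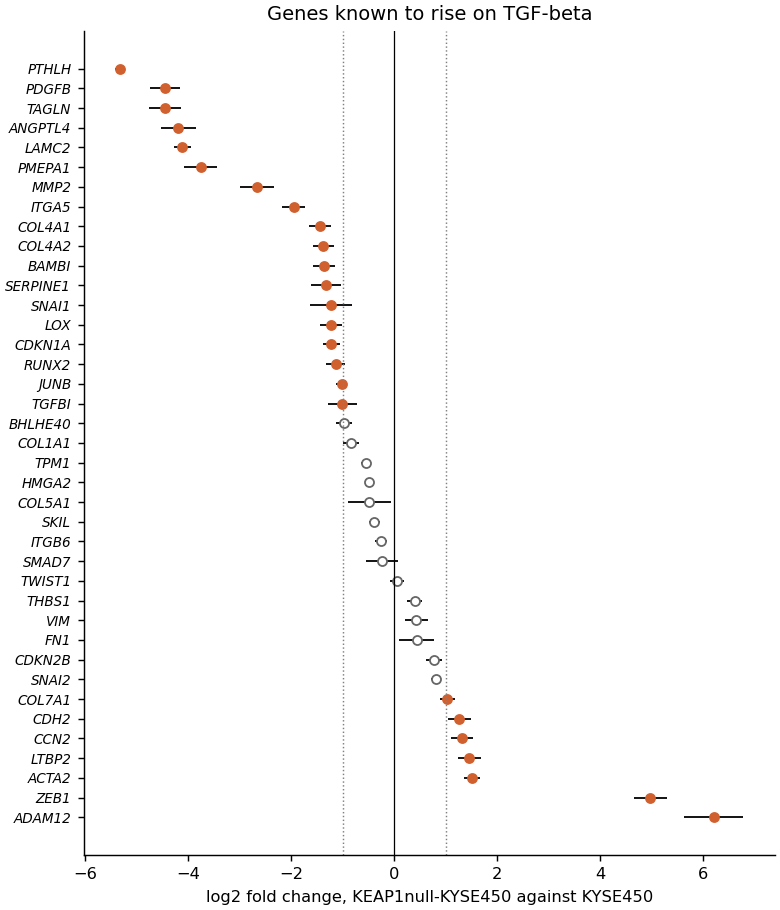
Log2 fold changes, KEAP1null-KYSE450 minus KYSE450, of the 39 tested genes known to rise on TGF-beta, as points. Bars reach the standard error from limma to either side and are narrower than 95% intervals. PTHLH is lowest at -5.32 and ZEB1 lies at 4.97. The value of ADAM12, the highest, depends on the pseudocount, because its KYSE450 libraries are at or under the floor.

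Of 9 genes known to fall on TGF-beta in epithelium, none was higher (against 12.2% of all genes), 1 was lower (11.1%, against 5.98%) and the median was -0.17. Without KEAP1null-KYSE450 library 1 the number lower was 2. The 1 was ID3, an inhibitor of helix-loop-helix factors, with 2396, 2665 and 2771 normalized counts in KYSE450 and 1095, 1260 and 1291 in KEAP1null-KYSE450 (log2 fold change -1.10, limma adjusted p = 4.6e-06). ID1 and ID2, of the same family and named for it, had log2 fold changes of -0.05 and 0.0046 and overlapping libraries.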

How the data were processed

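Total RNA of untreated KYSE450 and KEAP1null-KYSE450 cells (3 libraries each) was sequenced. The authors' deposited table gives normalized counts, a signal value for each gene in each library. The submitters' processing notes name FastQC 0.11.5, cutadapt 1.12, STAR 2.6.90c and featureCounts 1.5.1, with builds hg38 and mm10. The methods name hg38 and a RefSeq annotation, while the rows carry Ensembl identifiers. A filter or strand setting of the counting is not given in the sources used here. Reads shared by overlapping genes may be split or lost. Column headers give the line without a replicate number, so library numbers only name columns.

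Differences were tested with limma 3.58.1 (in R 4.3.3; a linear model with a moderated, trended variance) on log2(normalized count + 1), two-sided, for the 16701 genes whose mean reached 10, with Benjamini-Hochberg adjustment. Log2 fold changes are on this scale, where the pseudocount affects low genes, and plain folds are ratios of mean normalized counts. Values were 100% whole multiples of 1 read (tolerance 0.01), but reads were accepted as recovered in 4 libraries (53027359 to 61543442 reads). On those, edgeR 4.0.16 called 2698 genes and DESeq2 1.42.0 called 2500, against 3044 by limma. The scripts were tested on simulated data. Positions and exon lengths come from gencode v44, which holds 16630 of the tested genes. Promoters come from RefSeq.

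The 9 genes and all lists were chosen with earlier results of these data known. From each pathway list, up to 4 genes per direction with the largest log2 fold change among those called and averaging 100 or more where higher were named, with the 5 genes most alike TGFB2, 1 of which is not reported here, and KEAP1, NFE2L2 and NQO1. NFE2L2, the gene of NRF2, had a log2 fold change of -0.47. Marker lists were named by count, and single markers in them were named after their values were seen. The alternatives tried were other pseudocounts (0.1 and 10), a minimum mean of 100 or none, the same total per library, quantile normalization, no trend, a test against a fold change of 2, each library left out, edgeR, DESeq2 and, for levels, the longest transcript.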

Additional observations from a re-analysis of the deposited data

How the results depend on the processing

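Of 140 values of the 9 genes under 16 alternative settings, 130 kept their direction and were called, or not called, as reported. The adjusted p alone, outside the test against a fold change of 2, crossed 0.05 in 9 settings for TGFBR2, 3 for SMAD3, 2 for TGFBI and 1 for TGFBR1. TGFB2 ranged from -6.31 to -4.01 and TGFBR3 from 2.92 to 4.32 on the log2 scale, and both were called in every setting that tested them. With edgeR on 4 libraries TGFB3 and TGFBR1 changed sign, to 0.015 and 0.0015, neither called in any setting. TGFBI was at -0.96 with DESeq2, -0.93 with edgeR, -0.91 with a pseudocount of 10 and -0.98 with the same total per library, and was not called in these or in the test against a fold change of 2 (-1.01). Leaving out 1 library at a time gave TGFBI values from -1.28 to -0.79. The count of the 9 genes called was 1 where a mean of at least 100 was required, which removed TGFB3, TGFBR3, SMAD7 and TGFBI from the test, and 2 to 3 elsewhere. TGFBR1 had an adjusted p of 0.043 without KEAP1null-KYSE450 library 1, and that of TGFB1 was at most 0.012 outside that test.

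Over all genes, the count called higher was 875 with a mean of at least 100 and 626 in the test against a fold change of 2, which called 395 lower. Quantile normalization moved the share of calls that were higher from 67.2% to 51.8%. With the length of the longest transcript 6 of 9 genes kept their place in the level order in each line, and with 1 library left out 6 to 9 did in KYSE450 and 6 to 7 in KEAP1null-KYSE450. The pathway list counts were within 1.5 times the reported ones in 209 cases and outside that in 15. In the test against a fold change of 2, the genes known to rise on TGF-beta had 3 higher and 8 lower. No paired analysis was possible because the columns carry no replicate number. Levels under about 10 normalized counts, such as TGFB2 in KEAP1null-KYSE450 and TGFBR3 in KYSE450, rest on few reads, and their fold changes depend on the pseudocount.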
